A study of Mus musculus with 13 samples.

Results

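R-loops that were detected in every untreated DRIP-seq library of N2a cells and that lay away from promoters are described here. DRIP-seq enriches genomic DNA fragments that carry RNA:DNA hybrids with the S9.6 antibody, and N2a is a mouse neuroblastoma line. Peaks of the 9 libraries without RNase H digestion were merged into 69497 regions. Regions were chosen by 3 criteria: a width under 5000 bases, a peak in 9 of 9 libraries, and a midpoint more than 1 kb from every annotated transcript start. The criteria left 3410 regions, 4.91% of all merged regions and 45.7% of the 7460 regions that were called in 9 of 9 libraries. They are called constant distal regions below, and the 1953 regions that met the first 2 criteria with a midpoint within 1 kb of a start are called constant promoter regions. The N2a cells had been transfected with siRNA, and 3 libraries were titled siScramble (control siRNA), 3 siDDX1 and 3 siEXOSC3. DDX1 is an RNA helicase of the DEAD-box family. EXOSC3 belongs to the core of the exosome, a complex that degrades RNA from its 3′ end. For 1 further library of each group, the DNA was treated before the pulldown with RNase H, an enzyme that degrades the RNA strand of hybrids. The 1 input sample was not analysed here. In 12 of 12 lists, the treatment in the peak and file names disagreed with the sample title. Under those names, the titles siScramble, siDDX1 and siEXOSC3 stand for siDDX1, siEXOSC3 and siScramble, in that order. Groups were named by the titles, and every direction between groups rests on that choice, whereas tests over all 3 groups have the same value under either naming.

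An R-loop forms when a nascent transcript pairs with its template and leaves the other DNA strand unpaired. Promoters with CpG islands, where the transcribed sequence is rich in G over C, and the ends of genes, where R-loops have been tied to polymerase pausing and termination, are the best known sites. Cells remove R-loops with RNase H enzymes, with helicases and through factors that process or degrade the RNA. A DRIP-seq peak does not trace the hybrid itself, because the whole restriction fragment that carries a hybrid is pulled down.

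The sequences of 6 of these regions are shown first, so that the reported values can be set beside the DNA they come from. Each line holds 200 bases of the mouse genome build mm9 around the median of the 9 summits of a region, written 5′ to 3′ on the plus strand. Capitals mark runs of 3 or more G or 3 or more C. The first 2 are among the highest-ranking regions by fold enrichment that had no RNase H peak and whose window met no annotated UTR, the next is the highest-ranking region with a peak in 3 of 3 RNase H libraries, and the last 3 had the smallest p-values across the 3 siRNA groups among regions whose window met no UTR.
Rpl34, chr3:130433356-130433555, plus strand: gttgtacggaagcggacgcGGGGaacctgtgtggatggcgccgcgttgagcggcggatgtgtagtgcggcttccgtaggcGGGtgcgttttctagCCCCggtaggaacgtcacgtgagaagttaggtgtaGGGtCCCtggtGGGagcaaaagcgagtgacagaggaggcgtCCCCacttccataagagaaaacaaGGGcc
Vsnl1 intron, chr12:11355859-11356058, plus strand: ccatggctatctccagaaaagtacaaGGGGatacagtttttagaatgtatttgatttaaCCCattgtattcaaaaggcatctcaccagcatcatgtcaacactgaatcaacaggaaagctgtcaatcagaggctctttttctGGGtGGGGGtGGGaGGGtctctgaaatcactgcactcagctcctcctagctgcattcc
Filip1l intron, chr16:57391530-57391729, plus strand: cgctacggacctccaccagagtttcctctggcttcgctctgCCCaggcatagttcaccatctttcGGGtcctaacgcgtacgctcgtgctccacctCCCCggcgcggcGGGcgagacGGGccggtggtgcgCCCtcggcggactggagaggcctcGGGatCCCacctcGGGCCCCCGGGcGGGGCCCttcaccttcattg
chromosome 8 intergenic, chr8:27315574-27315773, plus strand: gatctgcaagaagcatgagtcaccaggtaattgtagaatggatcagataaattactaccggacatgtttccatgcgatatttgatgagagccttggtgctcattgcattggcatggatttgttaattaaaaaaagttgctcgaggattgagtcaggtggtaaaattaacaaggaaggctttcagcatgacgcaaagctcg
Hbs1l intron, chr10:21016733-21016932, plus strand: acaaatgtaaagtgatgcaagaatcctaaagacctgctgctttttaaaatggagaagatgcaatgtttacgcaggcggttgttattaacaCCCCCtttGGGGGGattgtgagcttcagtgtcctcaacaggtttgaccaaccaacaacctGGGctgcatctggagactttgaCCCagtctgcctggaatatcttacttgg
chromosome 9 intergenic, chr9:57065789-57065988, plus strand: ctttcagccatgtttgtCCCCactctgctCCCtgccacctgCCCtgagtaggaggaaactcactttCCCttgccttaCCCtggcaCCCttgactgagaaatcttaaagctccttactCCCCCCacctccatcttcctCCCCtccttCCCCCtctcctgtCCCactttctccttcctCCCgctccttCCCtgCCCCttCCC
The window in Vsnl1 held 5 runs of G on the plus strand, and the window of the Filip1l intron, at a GC content of 69.5%, held 7 runs of G and 6 runs of C. The chromosome 8 window held no such run, at a GC content of 41.0%, and the chromosome 9 window held 14 runs of C and 0 runs of G. The centre of the Rpl34 window lay 140 bases from an annotated start, although the midpoint of that region lay 2116 bases from one.

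Libraries differed in depth and in shape before any comparison of groups. The background pileup, a measure of depth recovered from the peak statistics as the expected number of fragments at a position, was 0.544 to 0.706 in 8 untreated libraries and 1.29 in siDDX1 replicate 1. The summits of the constant distal regions carried a median of 10 to 20 fragments per library, so single fold enrichments rest on few fragments. In siEXOSC3 replicate 3, 82.8% of the strongest summits of these regions lay within 200 bases of a restriction cut, against 45.4% to 58.3% in the other 8 libraries. Markers of the cell line were checked on the same regions. Constant distal regions lay in or within 1 kb past the end of the neuroblastoma and neuronal marker genes Hand2, Ret, Chga and Tubb3, and of 0 of 16 marker genes of liver, lymphoid, muscle and epithelial cells.

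The midpoint criterion did not keep all of these regions clear of promoters. An annotated start lay inside 418 of the 3410 regions (12.3%), and 735 (21.6%) reached to within 1 kb of a start. The median summit lay within 1 kb of a start in 227 regions (6.66%), among them that of Rpl34. The other 2675 regions (78.4%) lay with every base more than 1 kb from a start. Their mean GC content was 48.0%, against 50.8% in the regions that reached a promoter.

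Constant distal regions lay mainly inside genes and were frequent near gene ends. Their median width was 3065 bases (quartiles 2256 and 3892), and their midpoints lay at a median of 6.93 kb from the nearest start. By midpoint, 1783 (52.3%) lay in introns, 826 (24.2%) within 1 kb of a transcript end, 349 (10.2%) in exons and 452 (13.3%) in intergenic sequence. The share near a transcript end was 16.1% among the 24571 regions of the same width and distance limits that were called in 2 to 8 libraries, and 12.9% among the 27165 called in a single library. The introns held 63.9% and 67.9% of those 2 sets. These shares describe sets that differ by how often a region was called, which also sets their widths: the median width was 793 bases for regions called in 2 to 8 libraries and 326 bases for those called in 1. Among the 2675 regions clear of starts, 20.4% lay near a transcript end.

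Around the ends of protein-coding genes, the constant distal regions formed a peak. The last kb before a gene end held 7.24% of their midpoints and the first kb past it held 4.78%, against 3.31% at 4 to 5 kb before the end and 1.23% at 4 to 5 kb past it. In all, 905 regions (26.5%) lay in the last 5 kb before the nearest gene end and 444 (13%) in the first 5 kb past it. The corresponding shares were 16.5% and 10.6% for regions called in 2 to 8 libraries, and 12.3% and 9.09% for those called in 1. Outside of all genes, 147 constant distal regions lay only within 1 to 5 kb past a protein-coding gene end and 62 lay only within 1 to 5 kb before a start, a ratio of 2.37. The ratio was 2.05 for regions called in 2 to 8 libraries and 1.77 for those called in 1. Within protein-coding genes, the midpoints lay at a median of 68.4% of the gene's length from its start, against 59.1% and 54.9% in those sets, and the distance criterion removes midpoints near starts from all 3. The genes that held these midpoints also differed in length, with medians over regions of 36.3 kb against 55.5 and 67.9 kb. The part of gene length in the positions near gene ends was not tested.

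**Figure D1:**
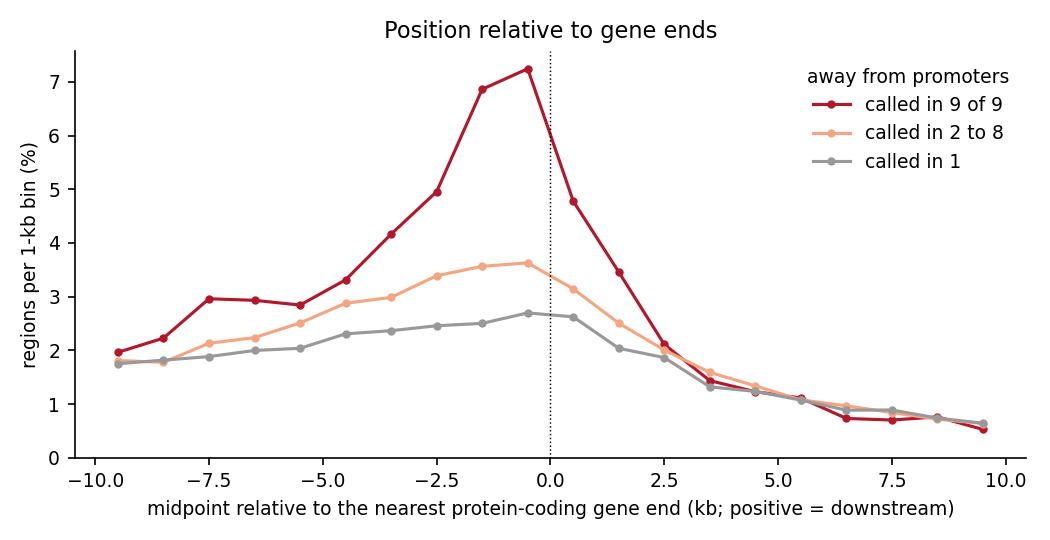
Share of regions per 1-kb bin (y axis, percent of each set) by the distance of the midpoint from the nearest protein-coding gene end (x axis, kb, positive past the end), for regions away from promoters called in 9 of 9, 2 to 8 or 1 of the untreated libraries. The bin before the end holds 7.24% of the regions called in 9 of 9, the highest bin of that set.

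In base composition, the constant distal regions stood between promoter regions and distal regions with fewer calls. Their GC content was 48.6% ± 5.01 (SD over 3410 regions), against 53.8% ± 5.86 in constant promoter regions, 46.8% ± 5.66 in distal regions called in 2 to 8 libraries and 46.2% ± 6.46 in those called in 1. The ratio of observed to expected CpG, which is high in CpG islands, had a median of 0.228, against 0.603 in constant promoter regions, and exceeded 0.6 in 3.52% of the distal and 50.3% of the promoter regions. GC skew is the excess of G over C, (G - C)/(G + C), here on the non-template strand of genes that overlap on no other strand. It was positive in 1915 of the 2700 constant distal regions where it could be oriented (70.9%), with a mean of 0.0349. In regions called in 2 to 8 libraries it was positive in 61.2%, and in those called in 1 it was positive in 57.8%. The mean skew of these 2 sets was 0.0249 and 0.0259, so it did not fall from the first to the second. Skew was taken over whole regions, which were narrower in these sets, and the part of width in the shares was not tested. Constant promoter regions, with 75.5% positive, were higher, and the share in constant distal regions clear of starts was 71.1% of 2099. Among position classes the share was 74.4% in introns, 66.8% at transcript ends and 60.9% in exons.

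Short motifs set the constant distal regions little apart. The letters GGGG on either strand were found in 92.6% of the 500-base windows around their median summits and in 91.3% of the same windows over all merged regions. A run of GGGGGG, which also counts as GGGG, was found in 16.3% and 16.7%. Runs of 5 GA repeats were found in 2.64% against 3.05%, runs of 5 CA repeats in 6.57% against 7.68%, and runs of 12 A in 5.89% against 6.61%, each on either strand.

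A constant distal region lay in, or within 1 kb past the end of, 2258 of 22380 annotated protein-coding genes (10.1%). Of these genes 1715 held 1 region, 517 held 2 to 4 and 26 held 5 or more. Some of these genes also had a separate call at their start. A region called in 9 of 9 libraries that was not itself a constant distal region overlapped the first start, with 1 kb on either side, of 650 of the 2258 genes (28.8%). That share was 19.2% of the 4805 genes with only distal regions called in 2 to 8 libraries, and 11.9% of all protein-coding genes. Where constant distal regions that reach a start were counted too, 923 of the 2258 genes (40.9%) were called there. The chromosomes with the most regions were 11 (392 regions, 32.2 per 10 Mb), 8 (284, 21.6 per 10 Mb) and 15 (268, 25.9 per 10 Mb), and the X chromosome held 25, or 1.5 per 10 Mb. Merged regions with a midpoint more than 1 kb from a start, however often called, were also unevenly spread. They numbered 5231, 4103, 3180 and 639 on these chromosomes, in that order. The constant distal regions were 7.49%, 6.92%, 8.43% and 3.91% of them.

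The genes that held the most constant distal regions were long genes with regions along their length. Pcbp3, which encodes a poly(C)-binding protein, held 15 regions along its 200 kb on chromosome 10 (chr10:76224602-76424632, minus strand), from 8.20% to 90.6% of the gene. The medians over 9 libraries of their fold enrichments ranged from 5.55 to 15.5, and GC skew on the gene's strand was positive in 12 of the 15. Agap1, which encodes a GTPase-activating protein for Arf GTPases, held 11 (chr1:91351381-91791857), and Rere, which encodes a transcriptional corepressor, held 9 (chr4:149655755-149996075). Rptor, which encodes the raptor subunit of the growth-regulating mTORC1 kinase complex, held 8 (chr11:119464219-119760890), and Arid1a, a subunit of the BAF chromatin remodelling complex, held 7 (chr4:133234923-133312684). No region of these 5 genes had an RNase H peak.

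Gene families, listed mostly by symbol, were set beside the 10.1% of all protein-coding genes, and their transcription was not examined here. Of 67 genes of translation initiation and elongation factors (Eif and Eef), 20 held a constant distal region (29.9%). The count was 7 of 23 for actin, tubulin, stathmin and Mtap1b genes (30.4%), 8 of 29 for the RNA-binding Hnrnp and Srsf families (27.6%) and 19 of 85 for chaperones of the Hsp, Dnaj and Cct families (22.4%). Among 80 ribosomal protein genes only 9 did (11.3%). These are short genes, with a median length of 3.23 kb, and 73 of the 80 (91.3%) had a region of any kind called in 9 of 9 libraries at their start. Such a call at the start was also more frequent in the other families than in all protein-coding genes (13.5%). Its share was 46.3% for translation factors, 47.8% for the cytoskeletal genes, 75.9% for Hnrnp and Srsf and 31.8% for chaperones. Of 15 nuclear non-coding RNA genes, 2 (Neat1 and Xist) held a constant distal region. The region in Xist also lay in the overlapping gene Tsix, so it cannot be assigned to Xist alone. Constant distal regions overlapped 4 of 1423 snRNA genes, 7 of 1552 snoRNA genes, 6 of 1577 miRNA genes, 6 of 487 miscellaneous RNA genes and 0 of 332 rRNA genes. The distance criterion removes any region centred within 1 kb of the start of such a gene. These low counts were therefore largely set by the criterion. Near Rps27 and Rpl28, which encode ribosomal proteins, and Eif3d, which encodes a subunit of an initiation factor, the region's midpoint lay past the gene. The fold enrichment of the Eif3d region (chr15:77787155-77790914) was 23.7, 38.9 and 32.5 in siScramble, 26.4, 21.0 and 29.7 in siDDX1 and 33.9, 28.4 and 51.9 in siEXOSC3, with overlapping groups.

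The strongest constant distal regions were intergenic or lay in introns or at the ends of genes. Regions were ranked by the median over 9 libraries of the percentile of their fold enrichment among all 7460 regions called in 9 of 9. The first was an intergenic region of chromosome 11 (chr11:51481038-51482824), with a fold enrichment of 103, 148 and 112 in siScramble, 151, 68.4 and 91.1 in siDDX1 and 92.6, 85.1 and 125 in siEXOSC3. It overlapped a peak in 1 of 3 RNase H libraries. The Rpl34 region (chr3:130428658-130433614) gave 41.6, 65.0 and 65.7 in siScramble, 56.7, 34.6 and 53.1 in siDDX1, and 40.9, 39.1 and 59.2 in siEXOSC3. A region in an intron of Vsnl1, which encodes a neuronal calcium sensor (chr12:11354619-11357746), gave 44.5, 53.9 and 39.1 in siScramble, 58.9, 38.7 and 36.9 in siDDX1, and 32, 44.0 and 68.3 in siEXOSC3. Neither of the last 2 regions had an RNase H peak, and in both the groups overlapped. By position, the median over regions of the median fold enrichment over libraries was 8.70 for intergenic regions, 8.03 at transcript ends, 7.81 in exons and 7.38 in introns, and the median of introns was the lowest of the 4 classes in 9 of 9 libraries.

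Most of these regions had no peak in the libraries treated with RNase H, whose background pileup, 1.13 to 1.59, was no lower than that of most untreated libraries. A peak of the RNase H library titled siScramble overlapped 149 of the 3410 regions (4.37%), of that titled siDDX1 95 (2.79%) and of that titled siEXOSC3 113 (3.31%). The mean share was 3.49% ± 0.81 (SD, n = 3), and 3219 regions had no peak in any of the RNase H libraries. Constant promoter regions overlapped RNase H peaks less often in 3 of 3 libraries, at 2.82%, 1.28% and 2.66%. With 3 libraries a two-sided exact permutation test of this difference cannot go below p = 0.25. Distal regions called in 2 to 8 libraries, which were narrower (median width 793 bases), had 2.42% ± 0.39 (SD, n = 3), and the part of width in these shares was not tested. When the RNase H peak had to cover at least 50% of the region, the share of constant distal regions was 1.63%.

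**Figure D2:**
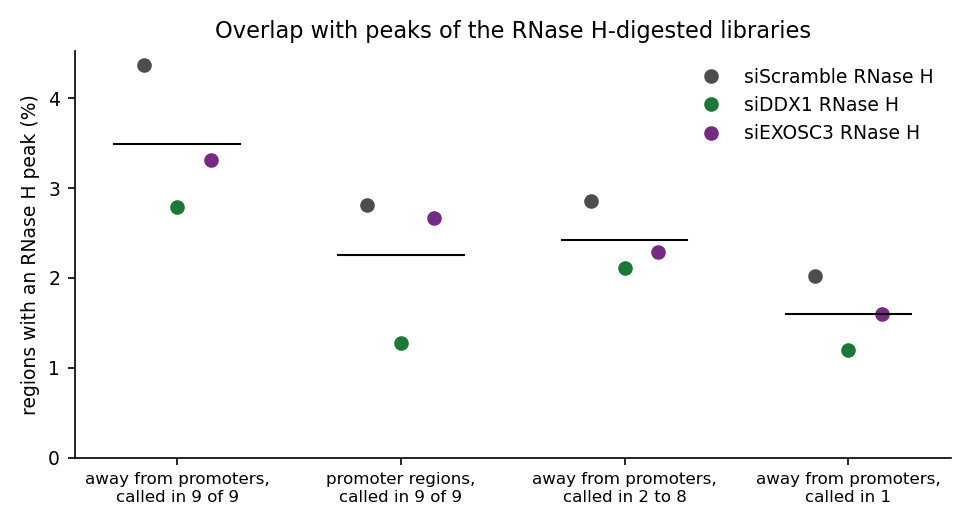
Share of regions that overlap a peak of an RNase H-digested library (y axis, percent), for 4 sets of regions (x axis). Each point is 1 RNase H library and each line the mean of 3; constant distal regions range from 2.79% to 4.37%.

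The 67 regions with a peak in 3 of 3 RNase H libraries were unlike the rest. They were narrower, with a median width of 1050 bases against 3091 in the 3219 regions with no RNase H peak, and 30 of 67 (44.8%) were intergenic, against 12.1%. GC skew was positive in 23 of 33 that could be oriented, near the 1841 of 2582 of the others. In the ranking by fold enrichment, 6 of the first 10 constant distal regions had a peak in 3 of 3 RNase H libraries. The Filip1l region (chr16:57391238-57391818), in an intron of Filip1l and 2610528E23Rik, gave 63.0, 84.3 and 95.5 in siScramble, 70.6, 56.0 and 77.3 in siDDX1, and 84.1, 75.9 and 137 in siEXOSC3. A 319-base region in an intron of Gphn, which encodes the inhibitory synapse scaffold gephyrin (chr12:79451852-79452170), gave 59.3, 67.4 and 52.2, then 49.4, 34.2 and 26.8, then 47.1, 55.3 and 60.1 in the same order of groups. The other 4 were intergenic (chr3:5860322-5860833, chr1:92657891-92659513, chr8:15519785-15520116 and chr15:18329832-18330784).

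Constant distal regions were less enriched than constant promoter regions in each library. Their median fold enrichment was 7.03, 8.67 and 8.99 in siScramble, 8.29, 6.45 and 7.66 in siDDX1, and 7.38, 7.34 and 10.5 in siEXOSC3. In constant promoter regions it was 7.62, 9.73 and 9.31, then 9.60, 6.76 and 8.14, then 9.08, 8.56 and 12.6. The difference of the medians was −0.16 ± 0.09 on the log2 scale (SD, n = 9), lower in 9 of 9 libraries (exact permutation test by sign changes, two-sided, p = 0.00391, the smallest value that 9 libraries allow, with an adjusted p = 0.00391 over 2 tests). It was −0.20 when only the regions clear of starts were used and −0.18 when both sets were limited to widths of 2000 bases or more.

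**Figure D3:**
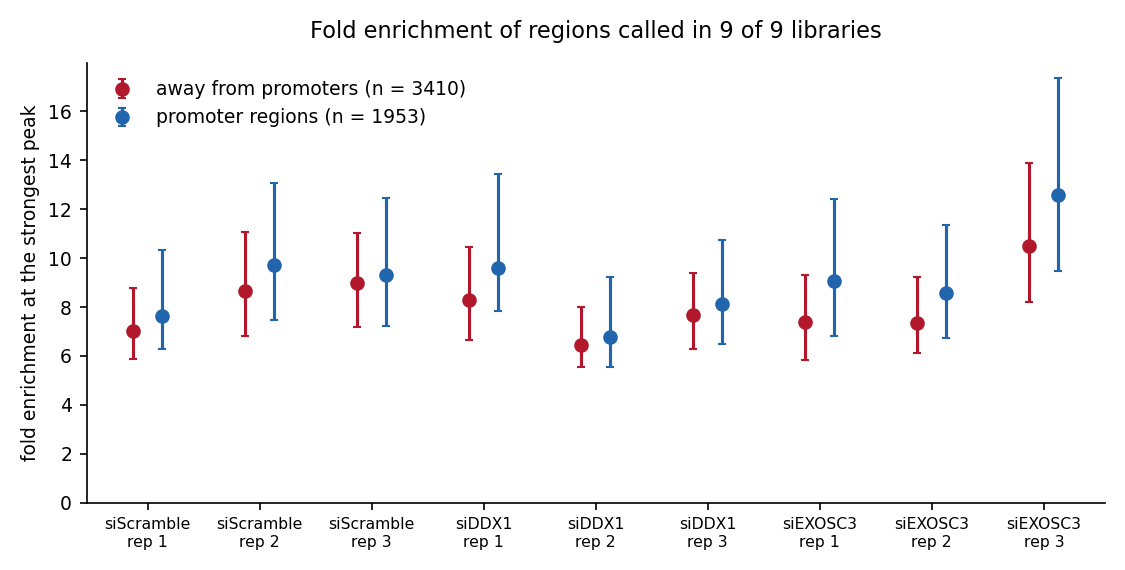
Median fold enrichment of the strongest peak per region (y axis, linear ratio), with bars from the lower to the upper quartile over regions, in the 9 untreated libraries (x axis). Constant distal regions lie below constant promoter regions in each library, and siEXOSC3 replicate 3 has the highest medians of both, 10.5 and 12.6.

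The gap between distal and promoter regions was widest in the libraries titled siEXOSC3. It was −0.12, −0.17 and −0.05 on the log2 scale in siScramble, −0.21, −0.07 and −0.09 in siDDX1, and −0.30, −0.22 and −0.26 in siEXOSC3. Each siEXOSC3 library lay below each library of the other groups. Across the 3 groups the difference did not pass the threshold (exact permutation p = 0.0714 and adjusted p = 0.107 over 3 tests, F statistic over 280 divisions of 9 libraries). Without siDDX1 replicate 1, the deepest library, the exact permutation p was 0.0214, and without regions that had an RNase H peak it was 0.0393. It was 0.125 with means in place of medians, 0.154 with the recovered pileup, 0.154 for widths of 2000 bases or more and 0.268 at a −log10 q of at least 5. The means of siEXOSC3 and siScramble were −0.26 and −0.11, a difference of −0.15 that has an exact permutation p of 0.1, the smallest that 3 against 3 libraries allow, and an adjusted p of 0.3 over 6 pairs.

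The bases of constant distal regions that were covered by peaks did not differ between groups beyond the spread of the libraries. Peaks covered 5.14, 7.57 and 8.12 Mb of these regions in siScramble, 8.40, 4.82 and 5.99 Mb in siDDX1, and 5.86, 6.12 and 7.37 Mb in siEXOSC3, or 46.5% to 81.0% of their bases. The 3 groups overlapped fully (exact permutation p = 0.889 and adjusted p = 0.889).

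Fold enrichments of the constant distal regions were more alike within groups than between them. Over the 3410 regions, the mean Pearson correlation of log2 fold enrichment was 0.708 for the 9 pairs of libraries of the same group and 0.652 for the 27 pairs of different groups. This difference of 0.0559 was the largest among the 280 divisions (one-sided exact permutation p = 0.00357, the smallest possible, and adjusted p = 0.0107 over 3 tests). It ranged from 0.0494 to 0.0708 when each library was left out in turn. The test was added after the data were seen, and it does not depend on which name belongs to which group. The labels give no batch of cell culture, pulldown or sequencing, so a batch that coincided with a group cannot be told apart from the group.

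Single regions were compared between groups with limma on the log2 fold enrichment of the strongest peak in each library, after each library was centred on its median over all 7460 regions. Across the 3 groups, 12 of the 3410 constant distal regions passed an adjusted p of 0.05 (0.352%), against a background of 0.402% of the 7460 regions tested. In pairs, 10 regions differed between siEXOSC3 and siScramble, 4 higher and 6 lower in siEXOSC3 (background 0.214%). Between siEXOSC3 and siDDX1 13 regions differed, 5 higher and 8 lower in siEXOSC3 (background 0.442%), and between siDDX1 and siScramble a single region, lower in siDDX1, differed (background 0.0402%). These pairs share libraries, so a region can be called in more than one of them. The shares among constant distal regions were near the background in all comparisons. At an unadjusted p under 0.05, 533 constant distal regions (15.6%) differed across the groups, against 16.2% of all regions tested.

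In all, 21 constant distal regions were called in at least 1 of these comparisons, of which 10 lay in introns, 7 in intergenic sequence, 3 at transcript ends and 1 in an exon. Of these 21, 2 overlapped a peak in 3 of 3 RNase H libraries and the other 19 overlapped none. The calls were few and moved with single libraries. The count across groups was 29 when siDDX1 replicate 1 was left out and 3 when siScramble replicate 3 was, and only 2 of the 12 calls were made in each of the 9 fits that left out 1 library.

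The first of those 2 was the intergenic region of chromosome 8 printed above, 36199 bases from the nearest transcript end, that of an annotated 7SK gene (chr8:27313021-27315824). Its fold enrichment was 20.5, 27.3 and 24.0 in siScramble, 18.2, 12.8 and 14.3 in siDDX1 and 8.20, 5.80 and 12.3 in siEXOSC3. The groups did not overlap, with siScramble highest and siEXOSC3 lowest. The limma log2 difference between siEXOSC3 and siScramble was −1.60 ± 0.21 (SE, adjusted p = 1.73e-04), and the adjusted p across the groups was 7.22e-04 (at most 0.00730 without any 1 library). With the mean of the peaks of the region in place of the strongest peak, the log2 difference was −1.17 and was no longer called. The summits carried 40, 50 and 47 fragments in siScramble, 52, 31 and 26 in siDDX1 and 14, 10 and 22 in siEXOSC3.

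The second lay in an intron of Hbs1l, which encodes a GTPase that acts in the rescue of stalled ribosomes (chr10:21015289-21018827), with its midpoint 1273 bases from a start. An annotated start of Hbs1l therefore lay inside this region, which was 3539 bases wide. Its fold enrichment was 10.5, 11.1 and 12.1 in siScramble, 24.0, 13.5 and 18.1 in siDDX1 and 6.83, 7.58 and 8.15 in siEXOSC3. All siDDX1 libraries lay above, and all siEXOSC3 libraries below, those of siScramble. The summits carried 17, 23 and 23 fragments in siScramble, 54, 21 and 27 in siDDX1 and 18, 15 and 19 in siEXOSC3, so that these raw numbers overlapped between siScramble and both other groups. The log2 difference between siEXOSC3 and siDDX1 was −1.47 ± 0.21 (SE, limma adjusted p = 0.00105), and −0.94, still called, with the recovered pileup. The limma adjusted p across the groups was 0.00281.

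Of the next 3 regions by the test across groups, 2 were lower and 1 was higher in siEXOSC3 than in siScramble. The intergenic region of chromosome 9 with 14 runs of C in its window (chr9:57062993-57067963) gave 14.1, 12.8 and 15.5 in siScramble, 10.5, 6.84 and 7.75 in siDDX1, and 4.97, 6.73 and 5.15 in siEXOSC3 (limma log2 difference −1.43 ± 0.23, SE, adjusted p = 0.00385). A region in an intron of 4932443I19Rik on chromosome 8 (chr8:13724076-13725022) gave 11.7, 17.3 and 10.5 in siScramble, 6.98, 4.73 and 6.46 in siDDX1, and 4.23, 5.50 and 7.48 in siEXOSC3 (−1.30 ± 0.22, SE, limma adjusted p = 0.00502). The region that was higher was intergenic and had a peak in 3 of 3 RNase H libraries (chr2:47683738-47684755). It gave 17.4, 24.6 and 19.0 in siScramble, 28.5, 20.0 and 27.0 in siDDX1, and 42.1, 47.4 and 49.8 in siEXOSC3 (1.11 ± 0.19, SE, limma adjusted p = 0.00502). The part of RNase H-resistant signal in that difference was not tested. Of these 3 differences, only that of the chromosome 9 region was called in each of the 9 fits that left out 1 library, and with mean peak values it was −1.03 and was no longer called.

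**Figure D4:**
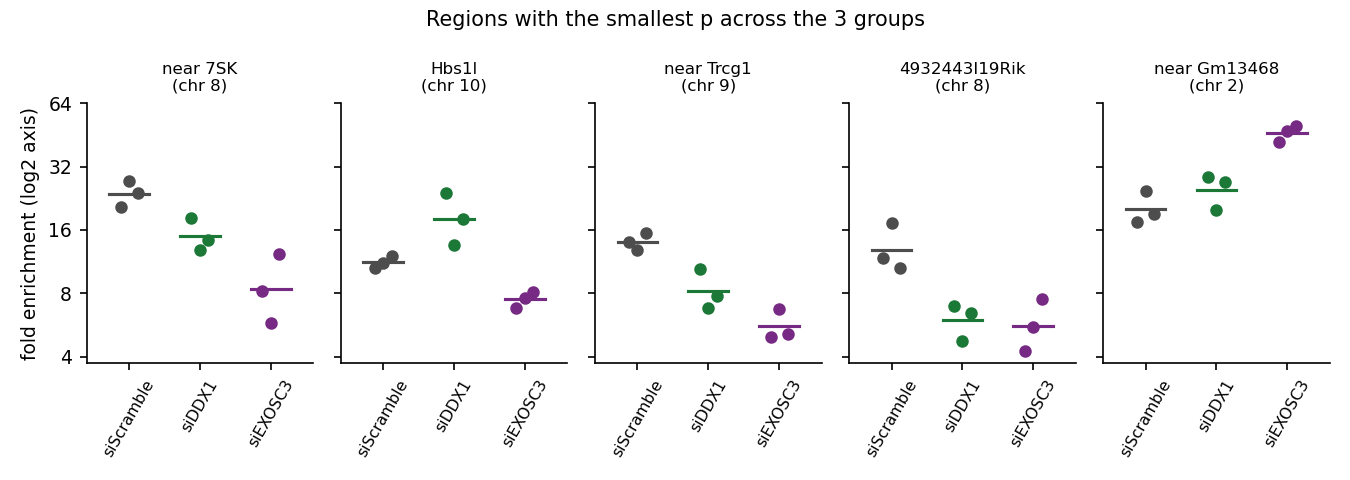
Fold enrichment (y axis, log2-scaled) in each untreated library of the 5 constant distal regions with the smallest p across the 3 groups, as titled. Points are libraries and lines are geometric means of 3. The 3 siEXOSC3 points lie below the 3 siScramble points in 4 regions and above them in the intergenic region of chromosome 2. That panel is labelled by Gm13468, the gene with the nearest transcript end, which lies 211198 bases away.

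The remaining regions named by the comparisons of pairs lay in or near genes of varied function. Higher in siEXOSC3 than in siScramble were regions at Plxna1, a semaphorin receptor gene (chr6:89308950-89313602, log2 difference 1.17, limma adjusted p = 0.0137), Trim56, a ubiquitin ligase gene (1.00, adjusted p = 0.0441), and Zfp467, a zinc finger gene (0.96, adjusted p = 0.0459). The Plxna1 region gave 6.44, 8.67 and 9.60 in siScramble, 8.29, 7.99 and 9.07 in siDDX1, and 19.3, 13.5 and 28.3 in siEXOSC3. Lower in siEXOSC3 was a region in an intron of Etv5, which encodes an ETS transcription factor (−0.98, limma adjusted p = 0.0459), with 9.96, 11.8 and 13.9 in siScramble and 5.59, 5.13 and 8.85 in siEXOSC3. Also lower was a region in the annotated gene Gm20388 on chromosome 8 (−1.12, adjusted p = 0.0227). Against siDDX1, regions at St3gal4, Ahnak2, Zfp592 and Sik3 were higher in siEXOSC3 by log2 values of 1.26, 1.33, 1.05 and 0.96, and regions at Ptp4a2 and Unc5b, the latter a netrin receptor gene, were lower, with log2 differences of −1.08 and −1.02 (limma adjusted p from 0.0192 to 0.0377). The Zfp592 region had a peak in 3 of 3 RNase H libraries, and the part of RNase H-resistant signal in its difference was not tested. The regions at Plxna1 and St3gal4, 4653 and 4207 bases wide, also held an annotated start, 1331 and 1201 bases from their midpoints. The single region that differed between siDDX1 and siScramble was intergenic, 12212 bases past the end of Ctf1, a cytokine gene (chr7:134872398-134875424). It gave 28.7, 26.6 and 32.5 in siScramble, 15.3, 11.7 and 13.6 in siDDX1, and 24.9, 20.8 and 29.5 in siEXOSC3 (−1.0 ± 0.20, SE, limma adjusted p = 0.0482). Its limma adjusted p rose to as much as 0.435 without 1 library, and no call of this paragraph was made in each of the 9 fits that left out 1 library.

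The spread over the 9 libraries differed among the constant distal regions, which had been chosen for a call in each library. The SD of the centred log2 fold enrichment over the 9 libraries had a median of 0.296, was under 0.2 in 327 regions and over 0.5 in 92. The highest of the 9 fold enrichments was a median of 1.88 times the lowest. The median SD within groups was 0.274, and the SD that the counting of summit fragments alone would give was 0.376. The counting SD takes no account of the choice of the strongest peak per region or of the required call in every library. The part of these choices in the lower observed SD was not tested. The smallest SD, 0.08, was that of a region in an intron of Xkr7 (chr2:152860594-152865280), with 7.03, 8.67 and 8.44 in siScramble, 9.16, 6.76 and 7.12 in siDDX1, and 8.08, 8.56 and 10.9 in siEXOSC3. Introns of Nomo1, Foxk1 and Slc7a1 and an exon of Pigu, a gene of GPI anchor synthesis, followed with SDs up to 0.0955. The largest SD, 0.75, was that of a region in an intron of Vps37a, which encodes a subunit of the ESCRT-I complex (chr8:41610224-41610903). This region had a peak in 3 of 3 RNase H libraries and gave 12.3, 17.9 and 6.85 in siScramble, 11.9, 9.67 and 9.73 in siDDX1, and 19.6, 4.61 and 32.9 in siEXOSC3, so that the siEXOSC3 libraries alone spanned the whole range. A region at the end of Pfkl, which encodes a phosphofructokinase of glycolysis, had an SD of 0.69, with 12.3, 12.4 and 13.3 in siScramble, 3.44, 5.53 and 7.12 in siDDX1, and 7.46, 11.6 and 7.08 in siEXOSC3. Its adjusted p across the groups was 0.0841 by limma.

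The outlines of the constant distal regions carried the restriction digest. The left outer edge was the same base in all 9 libraries in 394 regions and the right outer edge in 364, and 392 and 359 of these lay exactly on a cut of 1 of the 5 enzymes. The highest-ranking region with such a left edge is shown for each enzyme, as 30 bases of mm9 on the plus strand with the recognition site in capitals, which the edge cuts.
BsrGI, chr1:92657878-92657907, plus strand: actacatttgctTGTACAgacagtaacaaa
EcoRI, chr14:115439418-115439447, plus strand: taaggtttctgaGAATTCtggaatttcctg
HindIII, chr15:18329819-18329848, plus strand: ggtattataatgAAGCTTggtgaattctta
SspI, chr8:124356162-124356191, plus strand: cattgttctgaaAATATTaggtaacctctg
XbaI, chr11:97887882-97887911, plus strand: tctcccagctaaTCTAGAaacctttcacag
The XbaI site bounds the region at the end of Rpl19, a ribosomal protein gene, and the EcoRI site bounds an intergenic region near Mir17. By enzyme, 97 of the 392 shared left edges lay on BsrGI sites, 10 on EcoRI, 86 on HindIII, 78 on SspI and 121 on XbaI sites.

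Of all peak edges in constant distal regions, 29.8% to 45.1% lay exactly on a cut in single libraries, against 0.0537% to 0.143% of left edges that were shifted by 300 bases. The share was lower than in constant promoter regions by 10.9 ± 2.74 percentage points (SD, n = 9), in 9 of 9 libraries (exact permutation test by sign changes, two-sided, p = 0.00391, adjusted p = 0.00391 over 2 tests). Shared outer edges were also rarer, with at least 1 in 20.1% of the distal and 36.7% of the promoter regions. Within regions, the strongest summit moved between libraries by a median of 2048 bases, and it stayed within 500 bases in 5.95% of the constant distal regions. Exactly 1 peak lay in 46.7% to 63.8% of the regions per library, and the others held several.

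**Figure D5:**
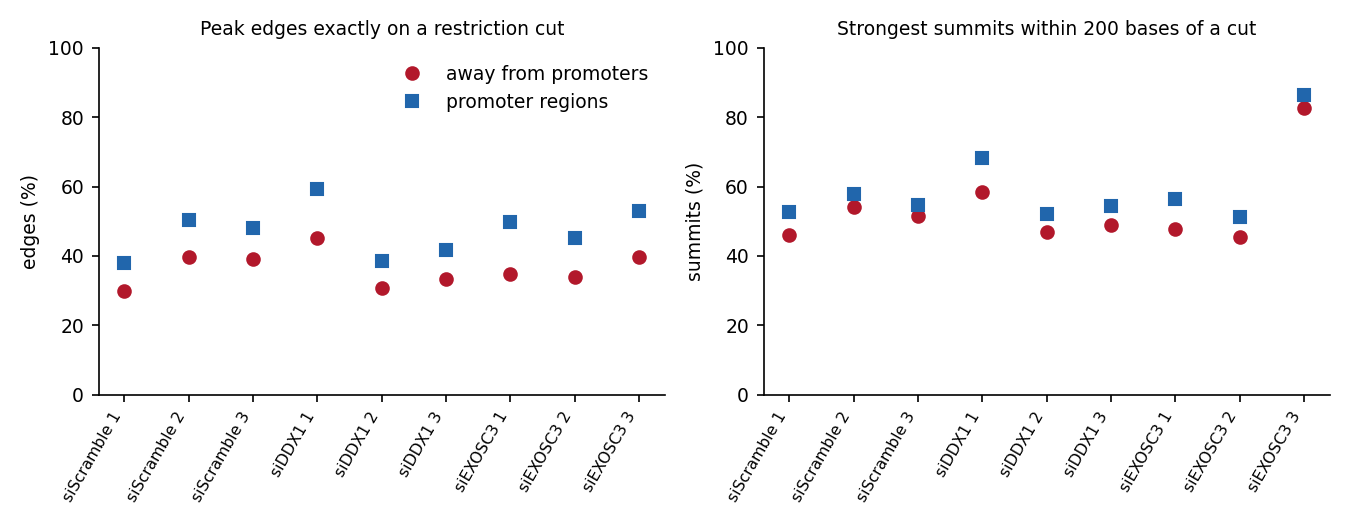
Percent of peak edges exactly on a restriction cut (left) and percent of strongest summits within 200 bases of a cut (right) in each untreated library, for constant distal and constant promoter regions. In siEXOSC3 replicate 3, 82.8% of the distal summits lie near a cut, against at most 58.3% in the other libraries.

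The regions just inside and just outside the criteria were as follows. The widest 2 regions kept, 4999 bases at the end of Iqce and 4997 bases in an intron of Ampd3, had fold enrichments from 6.15 to 11.4 and from 8.08 to 11.7. The narrowest 2 regions left out for their width, 5001 bases in Tmem181b-ps and 5002 bases at the end of Med1, had 9.99 to 19.0 and 7.99 to 21.2, with higher medians than the kept pair. The 2 kept regions nearest to a start had their midpoints 1002 bases from it, in Irak1 and Ets2, with 4.43 to 7.90 and 4.89 to 10.2. Those left out lay at 996 bases (Zfp532) and 995 bases (Usp7), with 4.53 to 9.65 and 9.29 to 17.4.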

How the data were processed

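Peaks of 12 DRIP-seq libraries were analysed, 3 for each of 3 siRNA groups and 1 RNase H-digested library per group. DNA was cut with 5 restriction enzymes before the S9.6 pulldown and sonicated after it. Per the submitters' processing notes, the authors aligned reads with Bowtie2 2.4.4 to mm9 and called peaks with MACS2 2.2.6, for each library against the input. The deposited lists give the fold enrichment as a linear ratio and the −log10 p-value and q-value of each peak. From the deposited ratio and −log10 p-value, the summit pileup was recovered for 314183 of 314412 peaks, with a largest mismatch of 0.000684 in −log10 p. Total read counts were not used here, so depth is relative and its precision limited by few fragments.

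Overlapping or touching peaks were merged, and regions were annotated by midpoint with GENCODE vM1 on mm9. Fold enrichments were tested with limma 3.58.1 in R 4.3.3, and library values with exact permutation tests (Python 3.11.15, scipy 1.17.1), with Benjamini-Hochberg adjustment. The code was tested on simulated data. The limma fit used the 7460 regions called in 9 of 9 libraries, with the strongest peak per library. Alternatives were another normalization, mean peak values, pileup, a −log10 q of at least 5, no variance trend, a replicate block, distances and single libraries left out. Regions were named by rank of fold enrichment, RNase H overlap, number per gene, p-value, spread, distance to the criteria, and gene lists. The regions and lists were chosen with earlier results of these data known. Samples are separate culture plates per the methods. Some named items are not reported here.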

Additional observations from a re-analysis of the deposited data

How the results depend on the processing

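Median summits held 10 to 20 fragments, which limits the precision of single regions. The lower fold enrichment of distal than promoter regions (log2 −0.18 to −0.15 with single libraries left out) and the edge difference (−11.2 to −10.3 points) kept direction and side of the threshold under all alternatives. The p for the group difference in that gap was 0.0393 without regions with an RNase H peak and 0.0214 to 0.168 with single libraries left out; the cause was not tested. For covered bases it was 0.407 to 0.996. The within-group correlation excess, 0.0559, kept its side under all alternatives (0.0494 to 0.0708).

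Regions numbered 1891 at a −log10 q of at least 5, 1790 with peaks up to 1000 bases apart merged, 2037 beyond 5 kb from every start, 3514 with protein-coding starts only and 3529 to 4005 with a library left out. The RNase H share was 1.63% at 50% coverage. The transcript-end share was 38.2% within 2 kb, 18% for protein-coding ends and 15.9% beyond 5 kb from a start. GC was 48.3% around summits and 47.8% beyond 5 kb.

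Calls across groups, for siDDX1 against siScramble, siEXOSC3 against siScramble and siEXOSC3 against siDDX1 were 2, 0, 1 and 1 with mean peak values, 34, 3, 32 and 25 with pileup, and 3 to 29, 0 to 8, 3 to 18 and 1 to 23 with single libraries left out. The second of these was 0 with quantile normalization and without the variance trend, and the last was 7 at a −log10 q of at least 5. Correlations between the deviations of same-numbered libraries from their group means were small (r from −0.121 to 0.105). Pairs with other numbers ranged from −0.194 to 0.153. Same-numbered pairs of replicates 1 and 3 were all positive (0.0341 to 0.105), and those of replicate 2 ranged from −0.121 to 0.00116. With the replicate block the calls were 26, 2, 19 and 15. Of 291 values for 20 named differences under up to 15 alternatives, 178 stayed past the threshold, 113 did not and 0 changed sign.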
